A study of Mus musculus with 319 samples.

Results

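The 7 genes described here are Igfbp5, Colq, Tppp3, Otud7b, Adcy9, Dnah5 and Nedd4l, out of 48795 entries in the deposited count tables that are not spike-ins. They were listed by name as genes of 1 possible state of thymic tuft cells, and the list was chosen by detection, co-detection and bitter-receptor counts in these same cells, so those values are given as a description with no test. The cells were single sorted cells of mouse thymus, in 4 sets of wells. The Aire-/- set had 96 wells from Flare25/Flare25 Aire-/- mice on a C57BL/6 background and belonged to batch 2. Wild-type (WT) wells came from Flare25/Flare25 mice of the same background, in batch 1 as the sets June5 (31 wells) and June29 (95 wells), and in batch 2 as 92 wells. Flare25 is a reporter of the tuft cell cytokine gene Il25, and every set carried it on both alleles. All sets were gated as EPCAM+, MHCIIlo and Flare25+ and as negative for CD45, CD11c and UVBlue. Mice were 6 weeks old by their labels, apart from 1 Aire-/- well labelled 5 weeks, with sex given as mixed. Thymi were pooled and no animal is named, so each set is 1 sample, differences between sets have no replicate check, and no p-value can be given.

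Tuft cells are rare epithelial cells that sense chemicals through taste-type receptors, signal through Trpm5 and release Il25, leukotrienes and acetylcholine. In the thymus they lie among the medullary epithelial cells, and many of them carry bitter taste receptors of the Tas2r family. The 7 genes have no single shared pathway. Igfbp5 encodes a secreted protein that binds insulin-like growth factors, and Colq encodes the collagen tail that anchors acetylcholinesterase at the neuromuscular junction. Tppp3 encodes a tubulin-binding protein of the TPPP family, and Dnah5 the heavy chain of an outer dynein arm, a motor of moving cilia. Adcy9 encodes a membrane adenylyl cyclase that makes cAMP. Otud7b encodes a deubiquitinase of the OTU family that restrains the alternative NF-kappaB pathway, and Nedd4l a HECT-type ubiquitin ligase known for removing the epithelial sodium channel from the cell surface.

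RefSeq promoter windows of build GRCm38.p6 were held for 3 of the 7 genes, Igfbp5, Adcy9 and Dnah5, and the 250 bases before each start site are shown to set their base composition side by side. They were searched on both strands for the octamer ATGCAAAT, bound by POU factors such as the tuft cell regulator Pou2f3, and for an E-box (CANNTG), a TATA box (TATAAA) and a GC box (GGGCGG). Capitals mark matches.
Igfbp5: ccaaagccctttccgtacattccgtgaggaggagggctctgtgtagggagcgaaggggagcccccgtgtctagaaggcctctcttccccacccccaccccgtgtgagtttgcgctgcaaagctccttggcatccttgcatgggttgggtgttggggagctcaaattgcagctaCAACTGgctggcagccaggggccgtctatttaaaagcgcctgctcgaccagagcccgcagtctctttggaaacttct
Adcy9: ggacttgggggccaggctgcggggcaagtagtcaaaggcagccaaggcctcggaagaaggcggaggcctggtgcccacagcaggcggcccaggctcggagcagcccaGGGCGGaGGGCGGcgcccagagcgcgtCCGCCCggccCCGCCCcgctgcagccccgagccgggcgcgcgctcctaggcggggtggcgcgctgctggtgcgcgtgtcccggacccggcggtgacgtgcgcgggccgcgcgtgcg
Dnah5: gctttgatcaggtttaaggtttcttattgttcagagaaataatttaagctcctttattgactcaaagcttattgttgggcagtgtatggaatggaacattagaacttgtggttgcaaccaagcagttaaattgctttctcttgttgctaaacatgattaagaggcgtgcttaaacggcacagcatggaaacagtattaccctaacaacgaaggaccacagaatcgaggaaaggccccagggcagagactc
The Igfbp5 window (chr1:72874866-72875115, minus strand) has 58.8% G and C and 1 E-box, from -77 to -72 before the start, a motif that 66.2% of 32851 promoter windows of that length hold. The Adcy9 window (chr16:4420499-4420748, minus strand) has 78.8% G and C and 4 GC boxes between -143 and -101, and 32.7% of promoter windows hold at least 1. In the Dnah5 window (chr15:28203516-28203765, plus strand), with 41.2% G and C, none of the 4 motifs occurs. No octamer was found in the 3 windows, against 1.60% of all promoter windows, and no TATA box, against 12.37%. Matches are letters only, and these 3 windows share no motif among the 4 searched.

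In the GRCm38 annotation each of the 7 is a protein-coding gene. IDs are those of the count tables, and for Dnah5 and Nedd4l the annotation that gives the coordinates holds a later version of the ID. Igfbp5 (ENSMUSG00000026185.8) lies at chr1:72857932-72874884 on the minus strand, with 6006 bases of merged exons. Colq (ENSMUSG00000057606.14) lies at chr14:31523082-31591343 on the minus strand, and 4.54% of the 40-base words of its exons also occur in another gene, so a small share of its reads is uncertain. Tppp3 (ENSMUSG00000014846.12) lies at chr8:105467493-105471526 on the minus strand and is the shortest of the 7, with 1848 bases of exons. Otud7b (ENSMUSG00000038495.14) lies at chr3:96104527-96161129 on the plus strand, Adcy9 (ENSMUSG00000005580.11) at chr16:4287529-4420498 on the minus strand and Dnah5 (ENSMUSG00000022262.7) at chr15:28203752-28472052 on the plus strand. Nedd4l (ENSMUSG00000024589.15) lies at chr18:64887705-65217828 on the plus strand and overlaps antisense genes, and without a stated strand setting reads of both strands cannot be told apart.

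Of 314 single-cell wells, 301 were kept as cells, having 10000 or more gene reads, 1000 or more genes and no more than 20% mitochondrial reads, which left 96 Aire-/-, 29 June5, 87 June29 and 89 WT batch 2 cells. Median gene reads per cell were 638298, 539655, 1150170 and 566923 in that order. No doublet caller was run. Cells expressed tuft markers, with medians of 24, 25, 23 and 23 of 30 listed markers at 5 or more reads. Exceptions were 1 of 96 Aire-/- cells and 3 of 89 WT batch 2 cells with under 10 of the markers. Aire itself had more reads in the cells labelled Aire-/-, at 152.7 CPM (counts scaled to the gene reads of a set), against 18.9 CPM in WT batch 2. A gene total does not show which part of the transcript the reads cover, so it does not check the label, and the genotype is used below as labelled.

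In WT batch 2, 3 cells had 10 or more of 16 listed markers of multiciliated cells (such as Foxj1, the master regulator of moving cilia) at 5 or more reads, while no other cell of the 4 sets had more than 4. Well 93 had 16 of the ciliated markers and 4 of the 30 tuft markers, well 49 had 11 and 7, and well 130 had 14 and 24. The first and second of these go against their tuft label. Among June5 cells, well 11 was the deepest, with 2927690 gene reads, which is 11.7% of the reads of its set. In the Aire-/- set, 1 cell had 2 of 30 tuft markers and 0 ciliated markers, and it was positive for Colq (917 CPM) and Otud7b (122.8 CPM).

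Positive for a gene means at least 5 of its reads in a cell. Each of the 7 genes was positive in a minority of cells of every set, and the plot of single cells shows their levels. With any read counted, Tppp3 was found in most cells, from 55.2% in June29 to 65.5% in June5. By that count Igfbp5 was found in 51.7% of June5 and 50.6% of June29 cells. The limit is set in reads, so the lowest positive cells lie low in CPM, at 5.50 CPM for Igfbp5 in Aire-/- and 2.96 CPM in June29. The median over all cells of a set was 0 CPM for Colq, Otud7b, Adcy9, Dnah5 and Nedd4l in all 4 sets and under 1 CPM for Igfbp5, and for Tppp3 it lay between 0.851 CPM in June29 and 9.15 CPM in June5. Intervals below cover counting error only, because amplified reads with no molecular identifiers cannot count molecules.

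**Figure D1:**
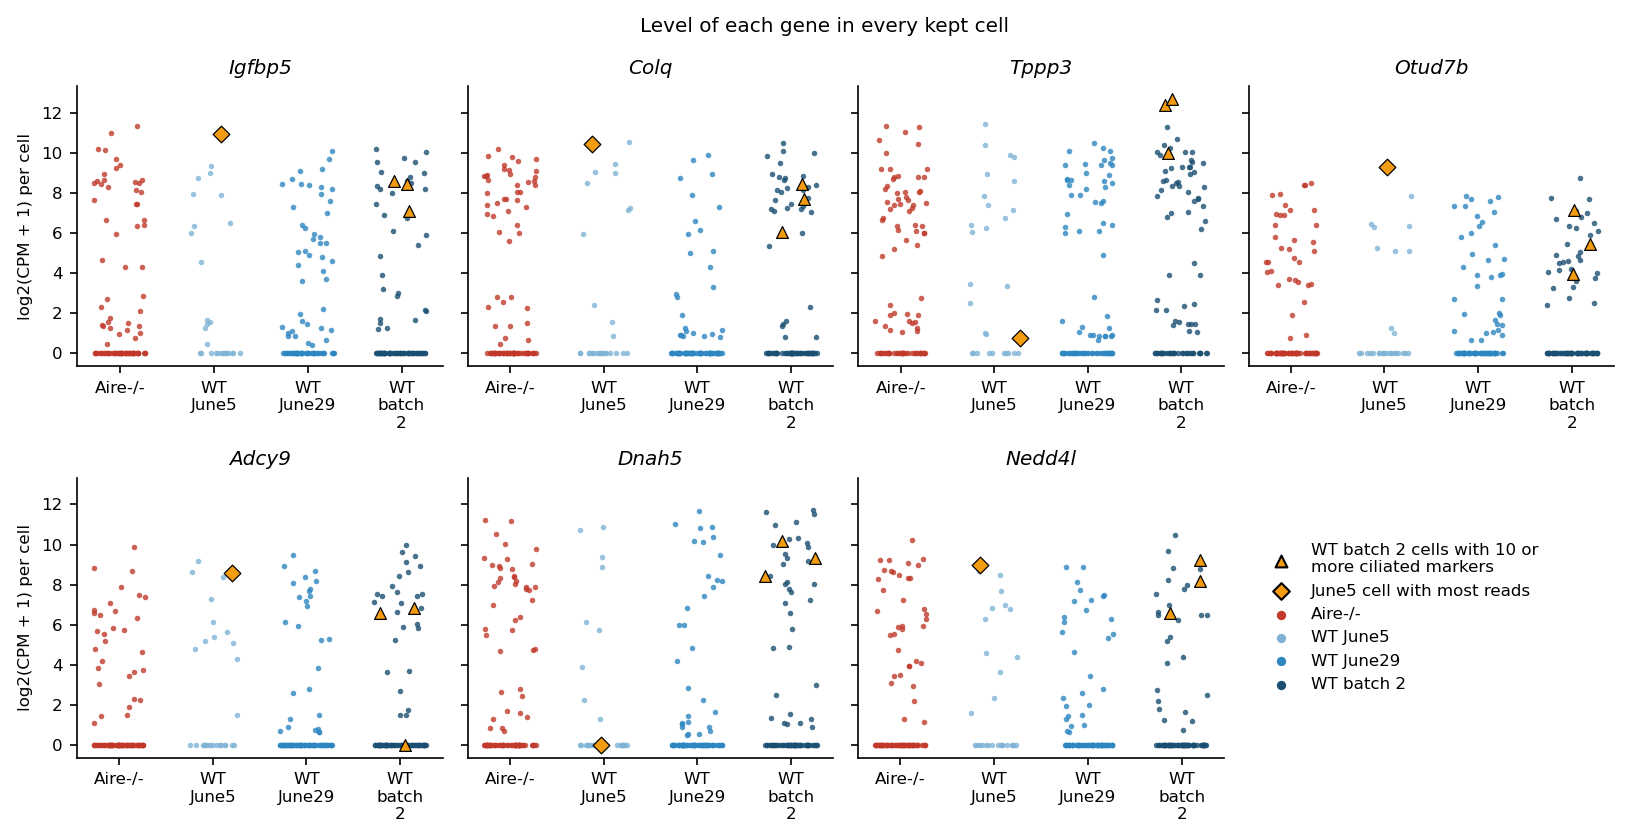
Level of each of the 7 genes in every kept cell, as log2(CPM + 1), for Aire-/- and the WT June5, June29 and WT batch 2 sets; each point is 1 cell. Triangles mark the 3 WT batch 2 cells with 10 or more ciliated markers, 2 of which are the highest Tppp3 cells, and the diamond marks the deepest June5 cell, which is the highest Igfbp5 cell of its set.

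Igfbp5 was positive in 31 of 96 Aire-/- cells (32.3%, 95% Clopper-Pearson interval 23.1 to 42.6%), 10 of 29 June5 cells (34.5%), 31 of 87 June29 cells (35.6%) and 25 of 89 WT batch 2 cells (28.1%, 19.1 to 38.6%). Summed over cells its level was 132.3 CPM in Aire-/-, 311 in June5 and 79.5 in June29, with 97.4 in WT batch 2. The June5 level rested on a single cell: well 11 held 73.6% of the Igfbp5 reads of the set, and without it June5 was at 92.9 CPM. Among positive cells the median was 316 CPM in Aire-/-, 242 in June5 and 75.5 in June29, with 321 in WT batch 2, and the highest cell had 2648, 1952, 1089 and 1193 CPM. The shares of positive cells overlapped in their intervals, so no order of the sets can be read from them.

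Colq, the acetylcholinesterase anchor, was positive in 35 of 96 Aire-/- cells (36.5%, 26.9 to 46.9%), 9 of 29 June5 cells (31.03%), 13 of 87 June29 cells (14.9%, 8.20 to 24.2%) and 30 of 89 WT batch 2 cells (33.7%, 24.03 to 44.5%). Colq summed to 147.6 CPM in Aire-/-, 223 in June5 and 42.98 in June29, with 130.2 in WT batch 2. The low set was June29, whose interval overlapped that of WT batch 2 only at its edge and did not overlap that of Aire-/-. Well 11 held 73.5% of the Colq reads of June5, and without it June5 was at 66.9 CPM. Colq is also a muscle gene, and muscle markers (such as Myog, Des and Ttn) were counted beside it. At least 2 of 12 muscle markers were present in 9 of 35 Colq-positive against 5 of 61 other Aire-/- cells, 1 of 9 against 1 of 20 in June5, 2 of 13 against 9 of 74 in June29 and 0 of 30 against 4 of 59 in WT batch 2. The summed muscle level ran from 0 to 14279 CPM in positive and from 0 to 2396 CPM in other Aire-/- cells, with 2 of the 12 markers at 0 in that set, and from 0 to 890 CPM against 0 to 2998 CPM in WT batch 2, with 3 at 0. The median summed muscle level was 4.72 CPM in Colq-positive and 1.28 CPM in other Aire-/- cells. It was 13.7 and 2.79 CPM in June5, 29.2 and 2.10 CPM in June29, and 0 and 0 CPM in WT batch 2. The part of muscle-type transcripts in the Colq values of the sets was not tested.

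Tppp3, the tubulin-binding gene, had the largest share of positive cells of the 7 in every set. It was positive in 44 of 96 Aire-/- cells (45.8%), 13 of 29 June5 cells (44.8%), 34 of 87 June29 cells (39.1%) and 40 of 89 WT batch 2 cells (44.9%). Tppp3 summed to 223 CPM in Aire-/-, 152.6 in June5 and 182.4 in June29, with 473 in WT batch 2. The WT batch 2 level rested on the cells with ciliated markers: well 93 alone had 6691 CPM and 33.6% of the Tppp3 reads of the set, well 49 had 5348 CPM and well 130 had 1022 CPM. The 3 cells together held 47.3% of those reads, and without them WT batch 2 was at 261 CPM with 37 of 86 cells positive (43.02%). Highest cells in the other sets had 2630 CPM in Aire-/-, 2783 in June5 and 1455 in June29. Beyond these cells, ciliated markers were counted beside Tppp3 in each set: at least 2 of the 16 were present in 4 of 44 positive against 8 of 52 other Aire-/- cells, 4 of 13 against 5 of 16 in June5, 7 of 34 against 4 of 53 in June29 and 4 of 40 against 5 of 49 in WT batch 2. The share was higher in Tppp3-positive cells in June29 alone, and the part of ciliated transcripts in Tppp3 was not tested.

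Dnah5, the outer dynein arm gene, was positive in 34 of 96 Aire-/- cells (35.4%, 25.9 to 45.8%), 6 of 29 June5 cells (20.7%), 18 of 87 June29 cells (20.7%, 12.7 to 30.7%) and 29 of 89 WT batch 2 cells (32.6%, 23.02 to 43.3%). The summed level was 156.7 CPM in Aire-/-, 103.4 in June5 and 108.5 in June29, with 184.7 in WT batch 2, and 162.9 in WT batch 2 without the 3 cells with ciliated markers. In June5, well 21 held 73.2% of the Dnah5 reads, and without it the set was at 28.8 CPM. A single Aire-/- cell held 34.6% of the Dnah5 reads there. Positive cells had a median of 266 CPM in Aire-/-, 573 in June5 and 317 in June29, with 579 in WT batch 2. Most Dnah5-positive cells had fewer than 2 ciliated markers: at least 2 of 16 ciliated markers were present in 7 of 34 positive against 5 of 62 other Aire-/- cells, 2 of 6 against 7 of 23 in June5, 2 of 18 against 9 of 69 in June29 and 3 of 29 against 6 of 60 in WT batch 2. The median summed level of the ciliated markers was 6.79 CPM in Dnah5-positive and 24.5 CPM in other Aire-/- cells, and 4.68 and 10.6 CPM in WT batch 2. It was nearly equal in June29, at 7.88 and 8.27 CPM. In June5 it was higher in the positive cells, at 155.6 against 16.4 CPM. In Aire-/- 4 of the 16 markers had no read at all, and in WT batch 2 none did.

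Adcy9, the adenylyl cyclase, was positive in 24 of 96 Aire-/- cells (25%), 11 of 29 June5 cells (37.9%), 18 of 87 June29 cells (20.7%) and 26 of 89 WT batch 2 cells (29.2%). Adcy9 summed to 29.9 CPM in Aire-/-, 93.9 in June5 and 42.7 in June29, with 53.8 in WT batch 2, and 55.8 in June5 without well 11, which held 47.6% of its reads there. Otud7b was positive in 29 of 96 (30.2%), 8 of 29 (27.6%), 25 of 87 (28.7%) and 29 of 89 cells (32.6%) of the same sets in the same order. The deubiquitinase was at 28.7 CPM in Aire-/-, 89.5 in June5 and 25.3 in June29, with 27.5 in WT batch 2. June5 stood apart only through well 11, which held 83.4% of the Otud7b reads and without which the set was at 16.8 CPM. Nedd4l, the ubiquitin ligase, was positive in 32 of 96 Aire-/- cells (33.3%), 10 of 29 June5 cells (34.5%), 20 of 87 June29 cells (22.99%) and 21 of 89 WT batch 2 cells (23.6%). It was at 67.8 CPM in Aire-/-, 132.04 in June5 and 35.8 in June29, with 70.2 in WT batch 2, and at 83.8 in June5 without well 11. That cell was positive for Igfbp5, Colq, Otud7b, Adcy9 and Nedd4l, while it had 2 reads of Tppp3 and none of Dnah5.

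**Figure D2:**
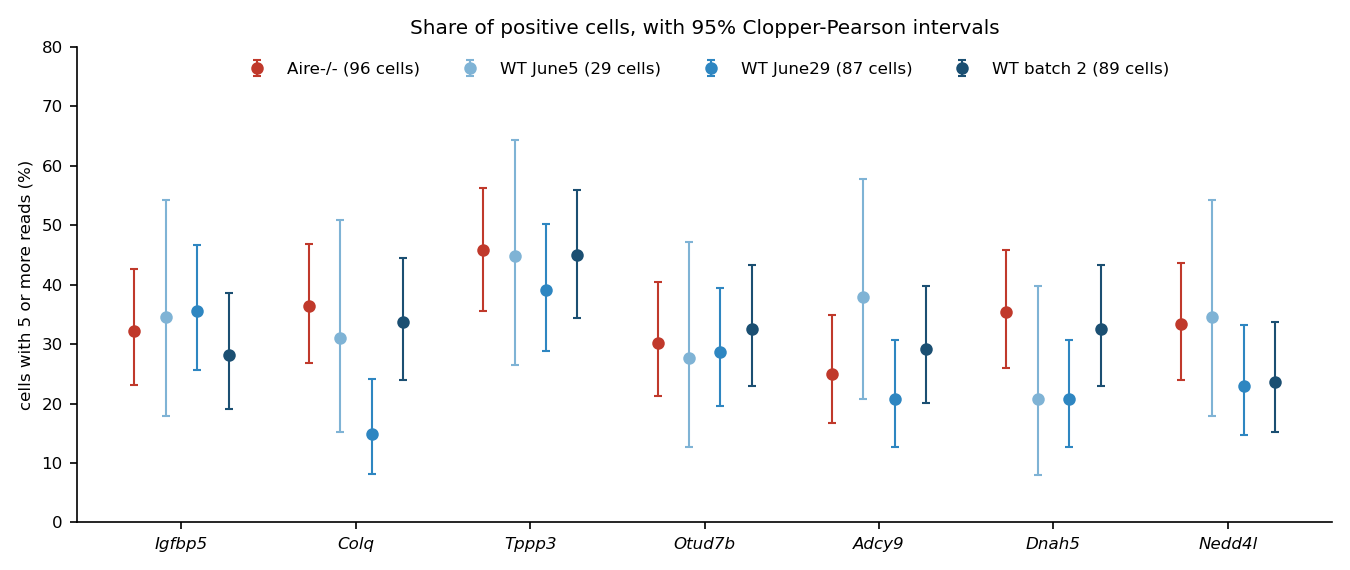
Share of cells with 5 or more reads of each gene in Aire-/- and the WT June5, June29 and WT batch 2 sets, in percent, with 95% Clopper-Pearson intervals. The interval of Colq in June29 (8.20 to 24.2%) lies below that of Aire-/- (26.9 to 46.9%), and every other pair of intervals of a gene overlaps.

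With cells thinned to equal depth, as described below, the positive share of Colq was 35.7% in Aire-/-, 21.7% in June5 and 11.8% in June29, with 32.9% in WT batch 2. That of Dnah5 was 36.9, 13.04, 20 and 31.6% in the same order, that of Nedd4l 27.4, 39.1, 18.8 and 21.5%, and that of Igfbp5 28.6, 26.1, 28.2 and 27.8%. Colq was again least frequent in June29.

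Levels per kilobase of exon allow the 7 genes to be set side by side. In WT batch 2 Tppp3 was at 256 CPM per kilobase, Colq at 34.2, Igfbp5 at 16.2, Dnah5 at 11.8, Adcy9 at 10.3, Nedd4l at 3.98 and Otud7b at 2.99. In Aire-/- the values were 120.9 for Tppp3, 38.8 for Colq, 22.02 for Igfbp5, 10.0 for Dnah5, 5.76 for Adcy9, 3.84 for Nedd4l and 3.12 for Otud7b. The order of the 7 genes was the same in both batch 2 sets, and Dnah5 with Adcy9 in WT batch 2 and Nedd4l with Otud7b in both sets stood closest together.

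Aire-/- cells were set against WT batch 2 cells, which share their batch, to ask whether loss of Aire goes with a change of the 7 genes. By a size rule (20 CPM or more in 1 of the sets, a log2 fold of 1 or more either way after 1 CPM was added, and positive shares that differ by 15 points or more with the same sign), 0 of the 7 genes passed. Of 8267 genes tested, 1.02% passed as higher and 0.399% as lower in Aire-/-, and the median log2 fold was -0.03. On the log2 scale, Aire-/- over WT batch 2, the folds were 0.44 for Igfbp5, 0.18 for Colq, -1.08 for Tppp3, 0.06 for Otud7b, -0.82 for Adcy9, -0.24 for Dnah5 and -0.05 for Nedd4l. Only Tppp3 passed the fold part of the rule, with shares 0.890 points apart. The fold of Tppp3 was -0.22 without the 3 WT batch 2 cells with ciliated markers and -0.52 without well 93 alone.

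The deposited sample sheet splits batch 2 into its own batches 1 and 2, each with Aire-/- and WT wells. Within them the log2 folds of 5 genes had opposite signs: Nedd4l -0.65 and 1.34, Dnah5 -0.81 and 0.51, Colq -0.20 and 0.75, Igfbp5 0.76 and -0.03, and Otud7b 0.19 and -0.09 in sheet batch 1 and 2. Tppp3 was lower in Aire-/- in both, at -1.47 and -0.42, with wells 49 and 93 in sheet batch 1, and Adcy9 was lower in both, at -1.25 and -0.27. In neither sheet batch did any of the 7 pass the size rule, against 2.65% of genes higher and 1.46% lower in sheet batch 1 and 3.62% higher and 1.28% lower in sheet batch 2.

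The 3 WT sets were also set against each other, which shows how far sets of 1 genotype lie apart. In June29 against June5, Colq (42.98 and 223 CPM, log2 fold -2.35) and Adcy9 (42.7 and 93.9 CPM, log2 fold -1.12) passed the rule as lower, among 3.4% of 8358 genes that did, while 1.81% passed as higher. In WT batch 2 against June29, Colq passed as higher (130.2 and 42.98 CPM, log2 fold 1.58), among 3.38% of 8513 genes, while 2.68% passed as lower. None of the 7 passed in WT batch 2 against June5, where 1.9% of 8561 genes were higher and 3.97% lower. These pairs share sets. Without well 11, June5 stood at 66.9 CPM of Colq and 55.8 CPM of Adcy9, the log2 folds of June29 over June5 were -0.63 and -0.38, and neither gene passed. Batch 2 also had 1 well of 50 cells for each genotype, and the study design mentions control wells of 100 cells. Their titles and genotype labels give the genotypes used here, but their descriptions name the count table of the other genotype, so an exchange of these wells cannot be told apart. As titled, Igfbp5 was at 204 CPM in Aire-/- and 260 CPM in WT, Colq at 202 and 122.1, Dnah5 at 245 and 83.3, and Nedd4l at 63.01 and 15.3. Otud7b was at 18.5 CPM in the Aire-/- and 58.3 CPM in the WT well, and Adcy9 at 31.5 and 20.8 CPM. The no-cell well of batch 1 had no read of the 7 genes among 9892 gene reads, a total in which 3 counts would be 303 CPM.

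Whether the genes occur in the same cells was described after each cell was thinned to 231697 gene reads, which left 84 Aire-/-, 23 June5, 85 June29 and 79 WT batch 2 cells. Thinning gives all cells the same number of gene reads, but other differences that the genes of a cell share can remain. Spearman rho across cells was taken for the 21 pairs of the 7 genes in each set. Thymi were pooled and no animal is named, so the cells of a set are not replicates. The cells of each batch 2 set span sheet batches 1 and 2. In WT batch 2, 20 of 21 pairs had a rho above 0, with a mean of 0.232, where the mean over all gene pairs was 0.0266 and 58.4% were above 0. In Aire-/-, 14 of 21 pairs were above 0 with a mean of 0.0754, against a mean of 0.0149 and 54.9% over all gene pairs. June5 had 17 of 21 pairs above 0 with a mean of 0.118, against 0.0640 and 60.9%, and without well 11 it had 12 of 21 with a mean of 0.0782. June29 had 16 of 21 above 0 with a mean of 0.0448, which lay below its mean of 0.0908 over all gene pairs, of which 74.7% were above 0. The mean rho of the 7 genes was thus furthest above that of all gene pairs in WT batch 2, and the difference between sets was not tested.

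**Figure D3:**
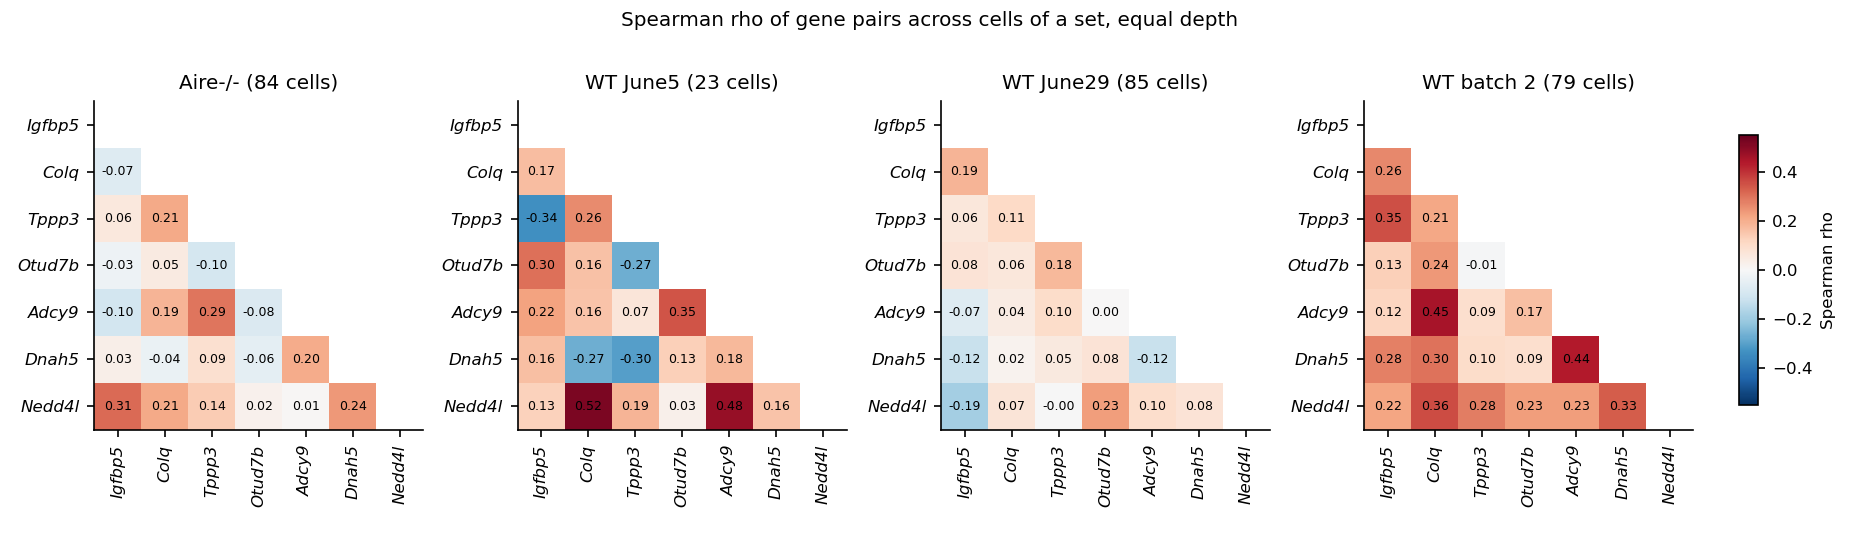
Spearman rho across cells, thinned to equal depth, for the 21 pairs of the 7 genes in Aire-/- and the WT June5, June29 and WT batch 2 sets (red above 0, blue below). WT batch 2 has 20 pairs above 0, Aire-/- 14, June5 17 and June29 16.

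Among pairs, Colq and Nedd4l had the highest mean rho, with 0.21 in Aire-/-, 0.52 in June5 and 0.07 in June29, with 0.36 in WT batch 2. Both genes were positive in 9 of 84 Aire-/- cells, where the product of the single shares gives 8.21, and in 5 of 23 June5 cells (1.96), 3 of 85 June29 cells (1.88) and 11 of 79 WT batch 2 cells (5.59). Colq and Adcy9 were both positive in 7 Aire-/- cells (5.71), 2 June5 cells (1.96), 3 June29 cells (1.76) and 12 WT batch 2 cells (5.92), with a rho of 0.45 in WT batch 2. Adcy9 and Dnah5 were both positive in 9 Aire-/- cells (5.90) and 12 WT batch 2 cells (5.70), but in 1 June29 cell where the product gives 3. Igfbp5 and Nedd4l, with a rho of 0.31 in Aire-/- and 0.22 in WT batch 2, had -0.19 in June29. For 8 of the 21 pairs the correlation was above 0 in all 4 sets, where 17.1% of all gene pairs were: Colq with Tppp3, Otud7b, Adcy9 and Nedd4l, Nedd4l with Otud7b, Adcy9 and Dnah5, and Tppp3 with Adcy9. Igfbp5 was in none of the 8. Tppp3 and Otud7b were the pair with a rho above 0 in 1 set only (June29, 0.18).

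Most of all gene pairs had a rho above 0 in every set, from 54.9% in Aire-/- to 74.7% in June29. More spread than independent genes would give was therefore not shown to be particular to the 7. The number of the 7 genes positive per cell was set against independent genes only. By that measure every set lay above, June29 included, and WT batch 2 lay furthest above. Its variance over cells was 1.88 in Aire-/-, 1.99 in June5 and 1.54 in June29, with 3.39 in WT batch 2, where independent genes with the same shares would give 1.44, 1.39, 1.17 and 1.42. In WT batch 2, 17 of 79 cells had none of the 7 and 5 had 6 or 7, where independence would give 6.44 and under 1. Of those 5 cells, wells 93 and 130 had all 7 and well 49 had 6, and these are the 3 with ciliated markers. Well 90, of sheet batch 1, and another cell, of sheet batch 2, had 6 of the 7, with 0 ciliated markers in both and with 23 and 24 tuft markers. The second of these had 1193 CPM of Igfbp5, 1030 of Colq, 958 of Tppp3, 950 of Dnah5, 345 of Adcy9 and 255 of Nedd4l, and no Otud7b read. Without the 3 cells with ciliated markers, WT batch 2 had 19 of 21 pairs above 0, with a mean rho of 0.173 and a variance of 2.68 against 1.34 for independent genes. Within its sheet batches 1 and 2, 20 and 19 of 21 pairs were above 0, with means of 0.218 and 0.256. The Aire-/- sheet batches had 10 and 14, with means of 0.0343 and 0.123.

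Bitter receptors were counted in each cell as the number of 40 Tas2r genes with a read after thinning. Of the 7 genes, Dnah5 had the lowest mean rho with this count over the 4 sets, at -0.30. Its rho was -0.33 in Aire-/-, -0.33 in June5 and -0.04 in June29, with -0.49 in WT batch 2. It was the lowest of the 7 in Aire-/- and WT batch 2, but Nedd4l was lower in June5 (-0.40) and Igfbp5 in June29 (-0.18). Dnah5-positive cells had a median of 3 Tas2r genes (0 to 19) against 5 (0 to 23) in other Aire-/- cells, 1 (1 to 1) against 5 (0 to 27) in June5, 2 (0 to 12) against 3 (0 to 26) in June29 and 1 (0 to 7) against 5 (0 to 22) in WT batch 2. The ranges overlapped in each set, and the June5 values rest on 3 Dnah5-positive cells. The rho of Dnah5 with the mitochondrial share was 0.50 in June5, against -0.03 in Aire-/-, 0.14 in June29 and 0.07 in WT batch 2. Of 6014 genes tested, none had a lower rho than Dnah5 in WT batch 2 and 0.316% had in Aire-/-, but 13.4% had in June29. Within sheet batches 1 and 2 the rho of Dnah5 was -0.39 and -0.28 in Aire-/- and -0.53 and -0.43 in WT batch 2, and it was -0.44 in WT batch 2 without the 3 cells with ciliated markers. Dnah5 was also lower in cells with more genes detected at equal depth. That rho was -0.23 in Aire-/-, -0.20 in June5 and -0.23 in June29, with -0.09 in WT batch 2. The Tas2r count itself had a rho of 0.31, 0.18, 0.40 and -0.007 with the genes detected, in the same order of sets. The part of the genes detected in the relation of Dnah5 to the Tas2r count was not tested.

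Nedd4l followed, with a rho of -0.22 in Aire-/-, -0.40 in June5 and -0.10 in June29, with -0.25 in WT batch 2. Its positive cells had a median of 3 Tas2r genes against 4 in other Aire-/- cells, 2 against 5.5 in June5, 2 against 3 in June29 and 1 against 3.5 in WT batch 2. For Igfbp5 the rho was -0.04, -0.29, -0.18 and -0.09 in the same order of sets, and for Otud7b it was -0.08, -0.03, -0.11 and -0.02. A rho below 0 in all 4 sets was thus found for 4 of the 7 genes, against 4.44% of 6014 genes, and 22.8% had a rho above 0 in all 4. Only Dnah5 and Nedd4l kept this with another random thinning, and Otud7b was at 0.06 in WT batch 2 without the 3 cells with ciliated markers. Colq had a rho of -0.22 in Aire-/-, 0.13 in June5 and -0.07 in June29, with -0.22 in WT batch 2. Tppp3 had -0.10, 0.05, 0.16 and -0.16, and Adcy9 -0.03, -0.13, 0.14 and -0.28, so the direction differed between sets for these 3 genes.

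**Figure D4:**
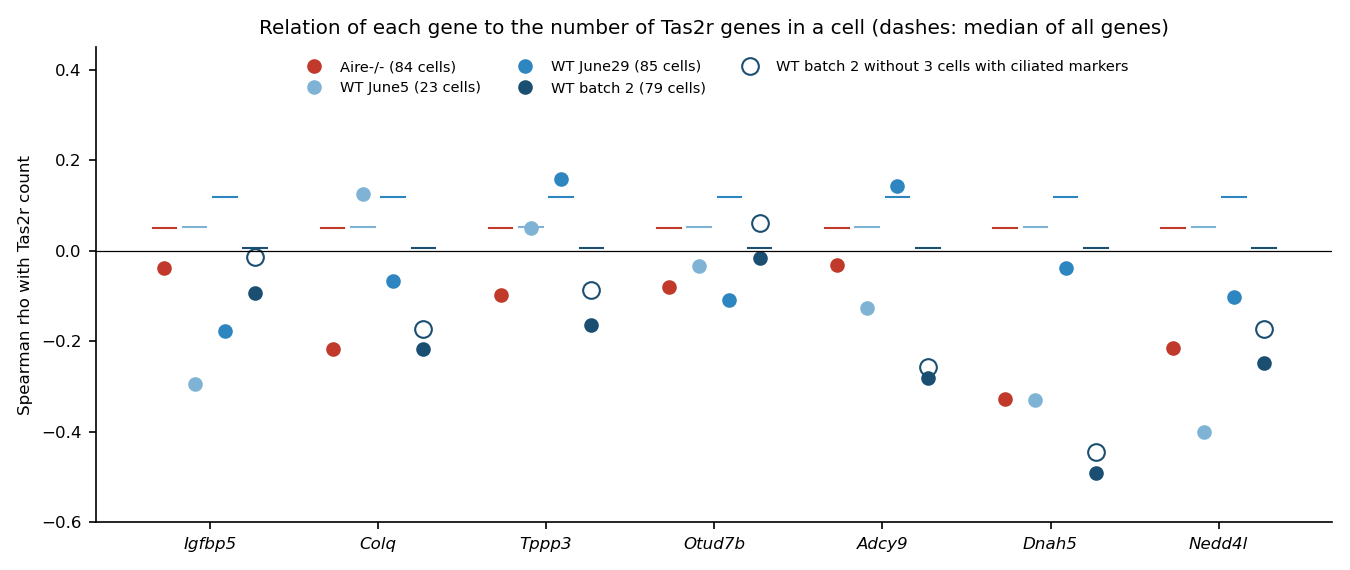
Spearman rho of each gene with the number of Tas2r genes per cell in Aire-/- and the WT June5, June29 and WT batch 2 sets, with the median over 6014 genes as a dash. Dnah5 and Nedd4l lie below 0 in all 4 sets, and open circles give WT batch 2 without its 3 cells with ciliated markers.

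The number of the 7 genes positive in a cell had a rho with the Tas2r count of -0.27 in Aire-/-, -0.40 in June5 and -0.06 in June29, with -0.35 in WT batch 2, and of -0.29 in WT batch 2 without the 3 cells with ciliated markers. Cells with none of the 7 had a median of 15 Tas2r genes in Aire-/- (10 cells, 5 to 23), 15 in June5 (3 cells, 4 to 21), 3 in June29 (20 cells, 0 to 21) and 9 in WT batch 2 (17 cells, 0 to 21). Cells with 4 or more of the 7 had a median of 3 Tas2r genes in Aire-/- (17 cells), 2.5 in June5 (4 cells), 2 in June29 (7 cells) and 1.5 in WT batch 2 (16 cells). All cells with under 4 of the 7 had medians of 4, 5, 3 and 4 in the same order. The medians did not fall step by step. Aire-/- cells with 1 gene positive had a median of 2, and WT batch 2 cells with 5 positive had a median of 5. In Aire-/- the lowest Tas2r count among cells with none of the 7 was 5, while cells with 1 gene positive reached down to 0. The deepest June5 cell, with 5 of the 7, had reads of 7 Tas2r genes before thinning.

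**Figure D5:**
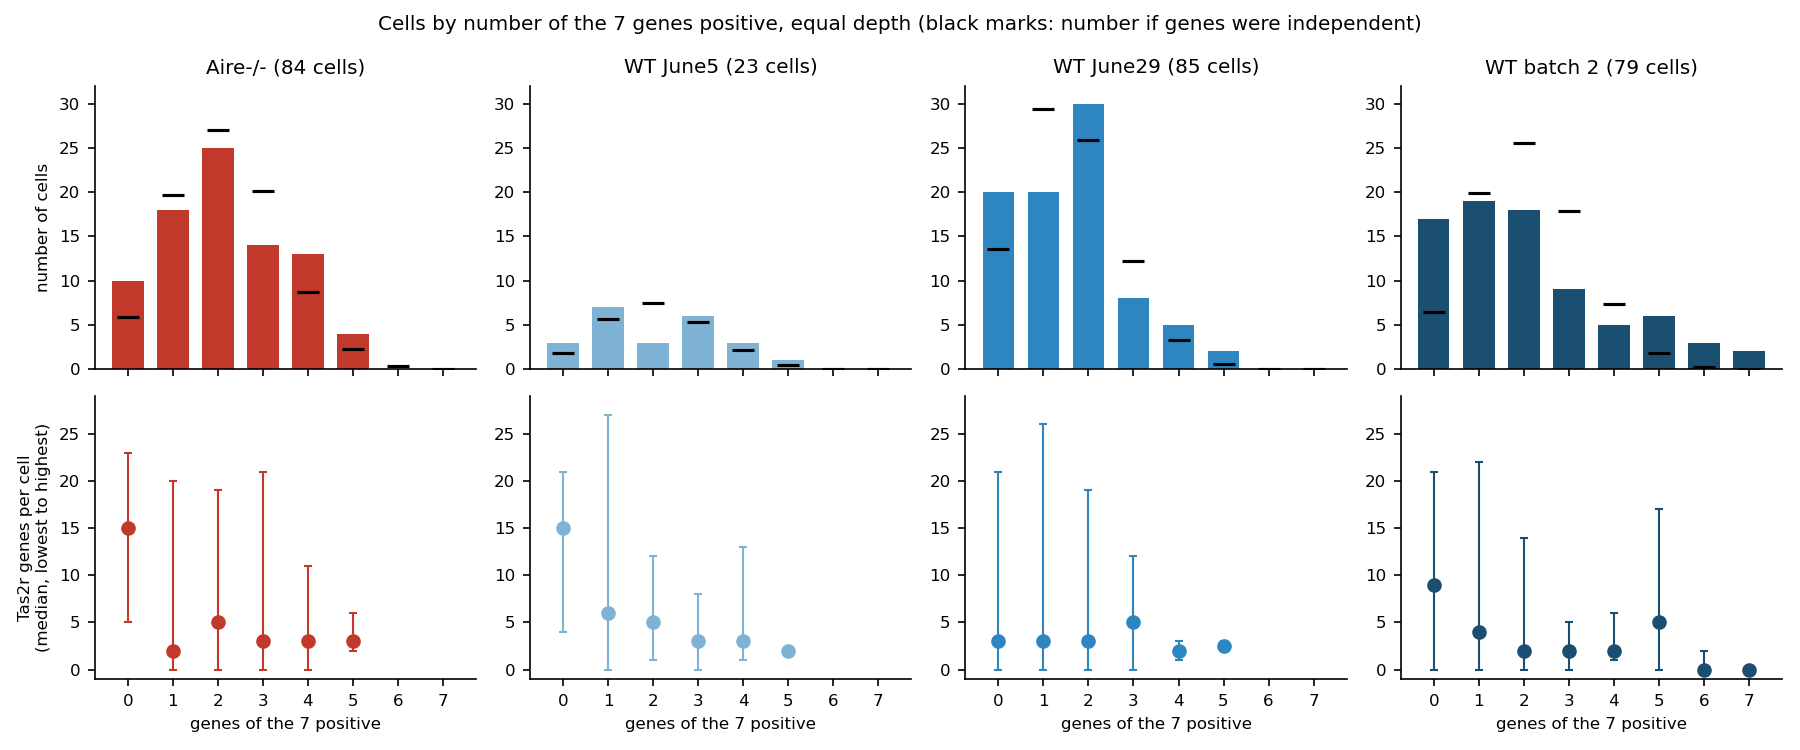
Top, number of cells by how many of the 7 genes were positive at equal depth, with black marks for the number if genes were independent. Bottom, median and range of Tas2r genes per cell at each number, for Aire-/- and the WT June5, June29 and WT batch 2 sets; cells with none of the 7 have medians of 15, 15, 3 and 9.

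For each of the 7, the 3 genes most like it were those with the highest mean rho over the 4 sets, among 6014 genes and with a rho above 0 in each set. Dnah5 went with Dclk1, the microtubule-linked kinase that marks tuft cells (0.52 in Aire-/-, 0.20 in June5 and 0.23 in June29, with 0.44 in WT batch 2), with Slco4a1, an organic anion transporter gene, and with Snrnp25, a minor spliceosome gene. Dclk1 itself had a rho below 0 with the Tas2r count in all 4 sets, from -0.66 in June5 to -0.12 in June29. Nedd4l went with S100a11 and Gm12854, which ranked high for Tppp3 as well. Whether these 2 genes share reads was not tested. Igfbp5 went with Il17rb, a receptor chain for Il25 (0.14, 0.57, 0.10 and 0.33), Rrm2b and Atp6v0e2. Colq went with Kdm1a, a histone demethylase gene (0.14, 0.51, 0.39 and 0.32), Gm44546 and S100a13. Tppp3 was closest to S100a11, a calcium-binding protein gene (0.39, 0.35, 0.21 and 0.35), Akt1 and Gm12854. Otud7b went with Suz12, a Polycomb gene, and with Fbxo22 and Hars, and Adcy9 with Strip2, Pstpip2 and Gtf3c1. Of these, Atp6v0e2, a subunit of the proton pump, passed the size rule between Aire-/- and WT batch 2 (141.7 and 60.9 CPM). At the other end, Dnah5 was lowest with Gnb3, a G-protein subunit of taste signalling (-0.35, -0.43, -0.24 and -0.48), and Colq with Itpr3, its calcium channel (-0.37, -0.20, -0.12 and -0.30).

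Genes of the same pathways as the 7 were then read from lists, and outside the 7 none of the genes tested passed the size rule between Aire-/- and WT batch 2. In the IGF system 5 of 18 genes were tested (median log2 fold -0.28, all tested genes -0.03), among them Irs2, an insulin receptor substrate, at 48.7 CPM in Aire-/-, 47.1 in June5 and 66.7 in June29, with 68.9 in WT batch 2. The list of acetylcholine genes had 5 of 28 tested (median 0.33), with Chat, which makes acetylcholine, at 417 CPM in Aire-/- and 331 in WT batch 2, and Ache, the enzyme that Colq anchors, at 42.4 and 39.1 CPM. Ache was positive in 15.6% of Aire-/- cells and 15.7% of WT batch 2 cells, and in 3.45% of June5 and 4.60% of June29 cells. Among TPPP and microtubule genes 15 of 21 were tested (median -0.08), with Tuba1a at 1541 and 1520 CPM and Tubb4b, a tubulin of cilia, at 511 and 747 CPM in Aire-/- and WT batch 2. Of the dyneins 9 of 24 were tested (median -0.07). Dynll1, a light chain shared by cytoplasmic motors, was at 436 CPM in Aire-/- and 458 CPM in WT batch 2, and Dync1h1 at 177.5 and 177.4 CPM. Dnal4, also tested, was higher in Aire-/-, at 95.1 CPM against 54.3 CPM in WT batch 2. Lower in Aire-/- were 4 tested dyneins of moving cilia. Dnah6 was at 1.31 and 38.4 CPM, Dynlrb2 at 1.91 and 37.9, Dnaic1 at 6.32 and 20.3, and Dnah12 at 0 and 22.2. All 3 WT batch 2 cells with ciliated markers were positive for each of these 4 genes, and without those cells WT batch 2 was at 25.4 CPM of Dnah6, 0.055 of Dynlrb2, 6.88 of Dnaic1 and 0.037 of Dnah12.

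The lists around the enzymes gave the same count of 0 genes past the rule. Of adenylyl cyclase and cAMP genes 11 of 29 were tested (median 0.01), with Adcy5 at 162.9 CPM in Aire-/- and 119.9 CPM in WT batch 2 and the taste G protein Gnat3 at 1511 and 1860 CPM. Gnat3 had a mean rho of 0.70 with the Tas2r count, where Adcy9 had -0.07. Of OTU deubiquitinase and alternative NF-kappaB genes 18 of 23 were tested (median 0.24), with Tnfaip3 at 248.7 and 265 CPM and Nfkb2, the alternative pathway's subunit, at 102.1 and 68.99 CPM. Of the NEDD4 ligases and their partners 8 of 17 were tested (median 0.10), with Nedd4 at 228 and 273 CPM and the adaptor Ndfip1 at 238 and 164.6 CPM. Nedd4 had a mean rho of 0.21 with the Tas2r count, where Nedd4l had -0.24.

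Other state lists were set beside the 7 by the rho of their summed level with the number of the 7 positive. For Gp2, Nmur1 and Unc5b it was 0.22 in Aire-/-, 0.17 in June5 and 0.23 in June29, with 0.32 in WT batch 2, and for Adh1, Lypd1 and Fabp5 it was 0.18, 0.20, 0.09 and 0.11. Immediate early genes, which rise in handled tissue, gave 0.17, -0.17, -0.07 and 0.04, and MHC class II genes gave -0.005 in Aire-/- and between -0.09 and 0.03 in the 3 WT sets. Colq alone had 0.32 with the MHC class II genes in Aire-/- and 0.02 in WT batch 2. The 30 tuft markers gave 0.09, 0.43, 0.10 and 0.03. At equal depth the number of genes detected had a rho of -0.13, 0.24, 0.19 and 0.11 with the number of the 7 positive in the same order of sets, and the mitochondrial share had -0.03, -0.30, -0.08 and -0.05.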

How the data were processed

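RNA of single sorted cells was made into Smart-seq2 libraries with ERCC spike-ins. Per the submitters' processing notes, reads were aligned with STAR and counted with featureCounts 1.5.3 on GRCm38. The annotation, strand and multi-mapping settings, not given in the sources used here, are unknown. The deposited counts are raw reads per gene and well. The authors' deposited score table was used only for which wells it holds, and the deposited sample sheet (other values: batch and genotype) for its batches. Entries were named through GENCODE symbols: 48349 of 48887. Counts were summed per set and scaled to gene reads (CPM), with exact Poisson and Clopper-Pearson intervals at the 95% level. Numbers come from Python 3.11.15, numpy 2.4.6, pandas 2.3.3 and scipy 1.17.1. Spearman rho used genes that had 5 or more thinned reads in 10% or more of the cells, set by set. The size rule and correlations were tested on simulated data. The genes named are the 7, their 3 closest genes and up to 4 genes of each list by level; further named genes were chosen after their values were seen, and 1 gene close to Nedd4l is not reported here. The 7 genes and all lists were chosen with earlier results of these data known. Alternatives covered thresholds, scaling, thinning, cells left out and sheet batches. The no-cell wells of batch 2 were not analysed here.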

Additional observations from a re-analysis of the deposited data

Results flagged for a closer look

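The 50-cell wells are outside the comparisons of single cells, and for 1 gene both lay above the upper bound of the no-cell well of batch 1. Tppp3 was at 771 CPM in the Aire-/- 50-cell well (416 reads, 95% Poisson interval 699 to 849) and at 419 CPM in the WT 50-cell well (302 reads, 373 to 469). The no-cell well had 0 reads, with an upper bound of 372.9 CPM. Each of the 50-cell wells is 1 well, so the difference between them was not tested. As titled, it runs opposite to the summed single cells, but the descriptions of these wells name the count table of the other genotype, and exchanged wells would give the same direction. In the single cells Tppp3 was at 223 CPM in Aire-/- and 473 CPM in WT batch 2, the second of which was 261 CPM without 3 cells with ciliated markers.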

How the results depend on the processing

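None of the 7 genes passed the size rule for Aire-/- against WT batch 2 under any alternative run. In June29 against June5, 2 passed, and 0 without the deepest June5 cell. The share of all tested genes passing in Aire-/- against WT batch 2 (1.02% higher, 0.399% lower) moved more. It was 0.847% lower with 1 read calling a cell positive, 1.67% higher with the mean of per-cell CPM, 3.93% higher and 0.229% lower when scaled to spike-in reads, 0.653% lower without cells with haematopoietic markers, and 1.71% higher without cells with ciliated, fibroblast or muscle markers. Sheet batch 1 alone gave 2.65% higher and 1.46% lower, and sheet batch 2 alone 3.62% and 1.28%. Over 13 alternatives the log2 fold of Tppp3 ran from -1.47 to 0.01, the highest without cells with ciliated, fibroblast or muscle markers, and that of Nedd4l from -0.65 to 1.34. Pairs with a rho above 0 stayed within 1.5 times the values given in every set, a wide limit for 21 pairs. Without cells with haematopoietic markers, 11 of 21 were above 0 in June29 and in Aire-/-. June29 also had 11 without cells with ciliated, fibroblast or muscle markers. With no cells left out, 74.7% of all gene pairs were above 0 in June29 and 54.9% in Aire-/-. WT batch 2 kept 18 pairs or more, and its mean rho ran from 0.173 to 0.256. The number of genes with a rho below 0 to the Tas2r count in all 4 sets (4) stayed at 4 only without Tas2r pseudogenes. It was 2 without cells with haematopoietic markers (Dnah5 and Nedd4l) and 1 without cells with ciliated, fibroblast or muscle markers (Dnah5). With another seed it was 2, as it was when Aire-/- and WT batch 2 were limited to sheet batch 2. Each remaining alternative gave 3. The cause was not tested. Among 41 alternative values each, the rho of Dnah5 never changed sign (-0.58 to -0.01). That of Nedd4l changed sign in 1, that of Igfbp5 in 5 and that of Otud7b in 13. Alternatives leaving out the deepest June5 cell, cells with 10 or more ciliated markers, and correlations within sheet batches were chosen after seeing the data. Depth limits June5 most, with 23 cells at equal depth. No paired analysis was possible because well numbers shared between sets mark no shared animal and each set is 1 pool.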

Other observations

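Among the marker and state lists, Aire and MHC class II genes were the ones that passed the size rule between Aire-/- and WT batch 2. Of the 10 MHC class II genes listed, which present antigen to CD4+ T cells, 4 passed as higher, and the summed level of the 10 was 6647 CPM in Aire-/-, 1192 CPM in June5, 2723 CPM in June29 and 2082 CPM in WT batch 2. The 8 tested MHC class II genes had a fold above 0, with a median log2 fold of 1.59. No tuft marker passed in either direction (29 tested, median 0.09). A WT batch 2 cell with 4 of 30 tuft markers and 1 ciliated marker had no read of the 7 genes in 903147 gene reads.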
